A study of Mus musculus with 3 samples.

Results

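The messenger RNAs of 10 genes of the TGF-beta pathway were followed in cultured synovial cells: the ligands Tgfb1, Tgfb2 and Tgfb3, the matrix protein Ltbp2, the receptors Tgfbr1, Tgfbr2 and Tgfbr3, the transducer Smad3, and the inhibitors Smad7 and Skil. They were taken by name from a deposited table of 56833 genes, and all 10 were found. The cells came from ankle synovium of Efhd1CreER; Ai9 mice. In these mice a tamoxifen-inducible Cre recombinase made under the Efhd1 gene switches on the red reporter tdTomato, which then stays on in the cell and its descendants. Sorted tdTomato-positive cells, called telocytes by the labels, then spent 24 h in culture on plates coated with collagen that were soft (0.2 kPa), of intermediate stiffness (8 kPa) or stiff (64 kPa). Each level had 1 library, so nothing below has a replicate check and no test across samples was possible. The mice's age and sex, the tamoxifen schedule and the number of animals pooled are not given in the sources used here. The series title names the question as whether stiffness drives telocytes toward fibroblasts.

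TGF-beta is made as an inactive complex, in which the ligand stays bound to its own propeptide and is often tethered to matrix by latent TGF-beta binding proteins. Pulling by integrins or cleavage by proteases frees it. The freed ligand joins the type II receptor to the type I receptor, which phosphorylates Smad2 and Smad3, and these enter the nucleus with Smad4. In fibroblasts the pathway is known for raising collagen, fibronectin and smooth muscle actin, and it limits itself through inhibitors that it induces. Resistance of a stiff matrix is known to ease the release of latent ligand by contractile cells, a step that messenger RNA does not report.

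The libraries held between 25487064 and 28081600 reads, and all 10 genes had at least 459 reads in each. Telocyte and fibroblast markers were checked first. The reporter tdTomato itself had 798 reads at 0.2 kPa, 1265 at 8 kPa and 2602 at 64 kPa, a stiff to soft log2 ratio of 1.70, and its part in the results below was not tested. Of 6 fibroblast markers 3 were higher and 3 lower in the stiff library, from Dcn at a log2 ratio of -0.44 to Col1a1 at 0.95, which are -0.26 and 0.42 after subtraction of a trend with length and GC content described below. Pdgfra, a receptor of both cell types, was among the lower ones, at 5884 normalized counts at 0.2 kPa, 6298 at 8 kPa and 5118 at 64 kPa. Cd34 stood at 235, 242 and 318 in the same order, Kit at 42.0, 38.7 and 45.1, and Efhd1 itself at only 10, 5 and 3 reads. The telocyte marker Vim, which most mesenchymal cells express, had 94005 at 0.2 kPa, 103009 at 8 kPa and 111934 at 64 kPa. Markers of macrophages were present too, although the cells had been sorted: all 13 on the list were higher in the stiff than in the soft library, 10 of them at least 2-fold, and their summed level was 30590 at 0.2 kPa, 37885 at 8 kPa and 66003 at 64 kPa. None of the 13 was at 0. Endothelial markers summed to between 57.4 and 86.1 normalized counts, and of 5 T cell markers 4 were at 0 in every library. Mural markers summed to between 10044 and 11516, with Pdgfrb, which fibroblasts also express, the largest at between 7732 and 8354.

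Levels of different genes can be compared only per length, so normalized counts were divided by the length of the Ensembl canonical transcript. Per kilobase, Tgfb1 was the highest of the 10 genes in every library, at 2699.7 at 0.2 kPa, 3263 at 8 kPa and 2752 at 64 kPa. Ltbp2 came next, at 1182, 1897 and 2446. Tgfb2 was the lowest throughout, at 90.0, 90.5 and 113. The other 7 genes lay between, from 238 for Tgfb3 at 0.2 kPa to 705 for Smad7 at 64 kPa.

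**Figure D1:**
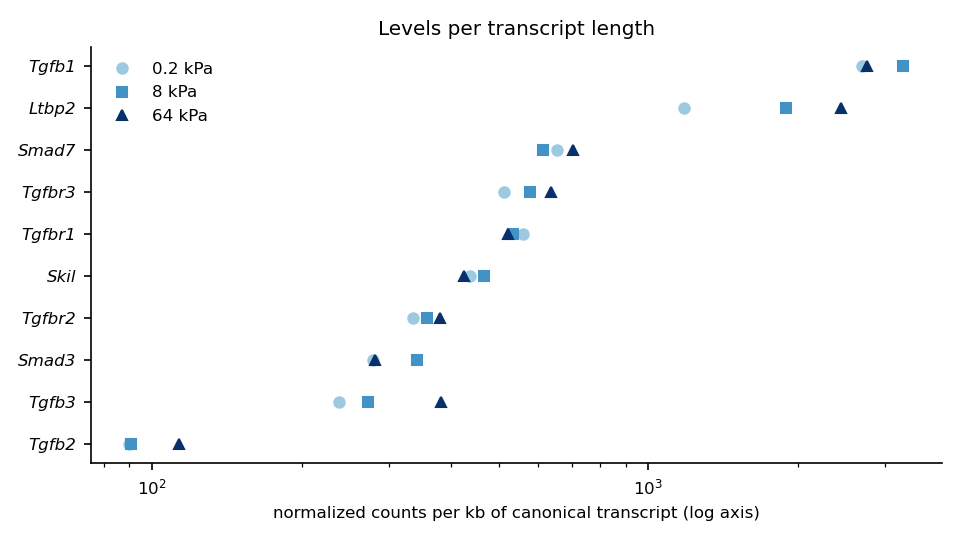
Each row is a gene and each symbol a library, placed by its normalized counts per kilobase of canonical transcript on a log axis. Tgfb1 and Ltbp2 stand to the right of the other 8 genes in every library, and the symbols of Ltbp2 and Tgfb3 are spread furthest apart.

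Between the stiff and the soft library Ltbp2 was the only 1 of the 10 genes that reached a log2 ratio of 1 in size. Log2 ratios were taken of the normalized count plus 1, so a ratio of 1 is a doubling. Of the 11873 genes whose mean over the libraries was 50 normalized counts or more, 3.6% reached that size in this comparison, and 3.22% did so upward. The median log2 ratio of the 10 genes was 0.15 as deposited, against 0.0049 over all 11873, and 8 of the 10 were higher in the stiff library and 2 lower, where 51.1% of all genes were higher. That count was 6 and 4 with the libraries scaled by their totals or upper quartiles, and 5 and 5 after a trend of the ratios with transcript length and GC content had been subtracted. The median of the 10 genes was then -0.0044, against 0.00069 over all genes, and no member passed a log2 ratio of 1, as 2.51% of all genes with an annotated length did. Neither the intermediate against soft nor the stiff against intermediate comparison had a member past a log2 ratio of 1, where 0.168% and 1.25% of all genes were. At a log2 ratio of 0.5, Ltbp2 and Tgfb3 passed between stiff and soft (15.6% of all genes did), Ltbp2 passed between intermediate and soft (4.6%), and no member passed between stiff and intermediate (8.84%).

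**Figure D2:**
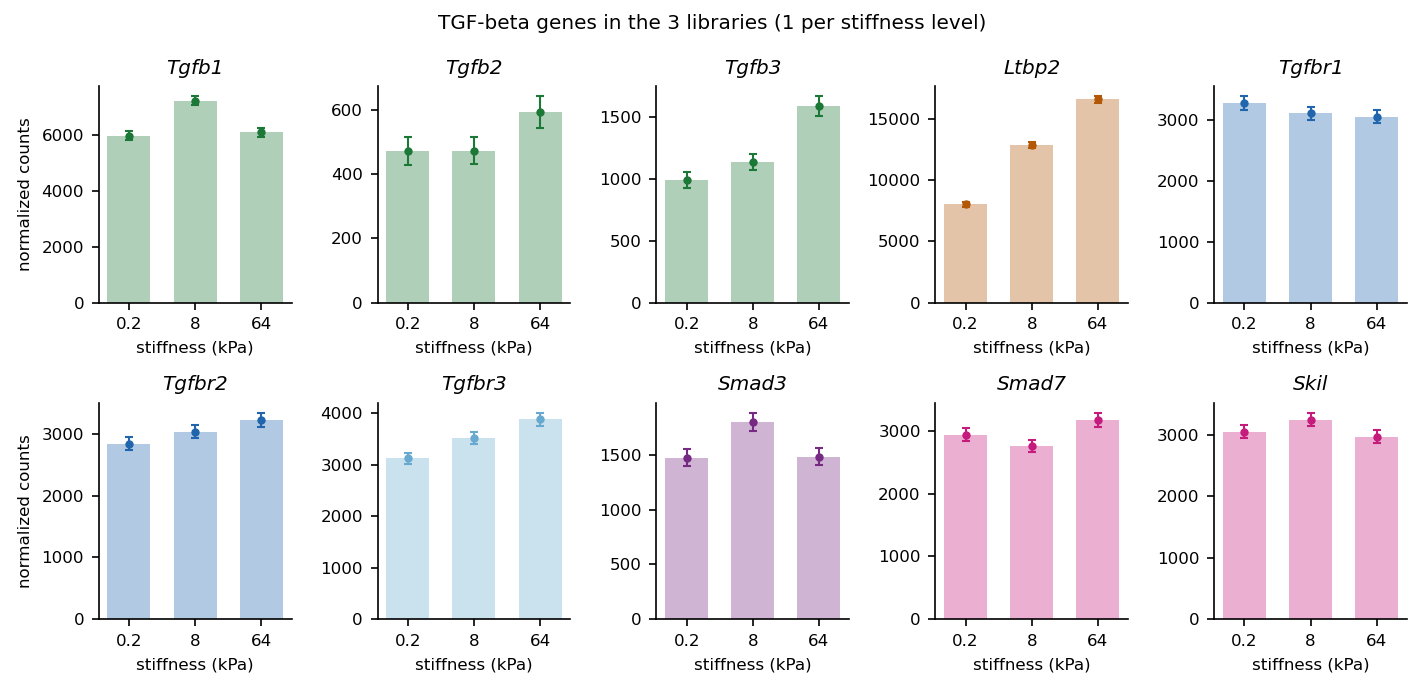
Each panel is a gene, with bars and points giving its normalized counts in the libraries at 0.2, 8 and 64 kPa and error bars giving 95% Poisson intervals, which cover counting error only. Ltbp2 goes from 8001 through 12841 to 16555, while Tgfb1, Smad3 and Skil are highest at 8 kPa.

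The log2 ratios followed transcript length and GC content across the whole table, which bears on several of these genes. As a description across 11655 genes with an annotated length, ratios at 64 against 0.2 kPa had a Spearman correlation of 0.26 with length and of 0.26 with GC content. Values after subtraction of this trend stand beside the ratios that it moves by over 1.5 times, turns in sign or takes across 1.

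Ltbp2 belongs to the latent TGF-beta binding protein family but, unlike its relatives, is not known to bind latent ligand. It associates with fibrillin and elastic fibres. The gene lies on chromosome 12 from 84829986 to 84923306 on the minus strand of GRCm39, with 36 exons in the canonical transcript. There were 8001 normalized counts at 0.2 kPa, 12841 at 8 kPa and 16555 at 64 kPa, so each library stood above the one below it in stiffness by more than the counting error. The stiff level was 2.07-fold the soft level, a log2 ratio of 1.05 with a counting interval from 1.01 to 1.09. Among all 11873 genes this ratio was at percentile 97.2. With the trend subtracted it was at percentile 90.4 among genes with an annotated length. The first step, from 0.2 to 8 kPa, had a log2 ratio of 0.68 (0.64 to 0.72) and the second, from 8 to 64 kPa, one of 0.37 (0.33 to 0.40). With the trend subtracted the steps were 0.33 and 0.10. The call rests on the scaling and on the trend: the stiff to soft log2 ratio was 0.99 under the 2 other scalings named above and 0.43 once the length and GC trend was taken off. At 6769 nt and 58.5% GC, the transcript is longer than 88.1% and richer in GC than 91.1% of the genes with a length. With bulk RNA, a change in the share of cells that express a gene and a change in RNA per cell cannot be told apart.

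The RefSeq promoter table, built on GRCm38.p6, matched 6 of the 10 genes by symbol, all but Tgfb3, Tgfbr3, Smad7 and Skil. The promoters of Ltbp2, the gene with the largest difference, and of the ligands Tgfb1 and Tgfb2, whose levels differed in unlike ways, are shown. Each window holds 250 bases before and 50 bases after a transcript start, 5′ to 3′ on the gene's strand, and capitals mark matches to the minimal SMAD-binding letters CAGAC on either strand. The windows are chr12:84876442-84876741 (minus strand) for Ltbp2, chr7:25686752-25687051 (plus strand) for Tgfb1 and chr1:186705940-186706239 (minus strand) for Tgfb2.
Ltbp2: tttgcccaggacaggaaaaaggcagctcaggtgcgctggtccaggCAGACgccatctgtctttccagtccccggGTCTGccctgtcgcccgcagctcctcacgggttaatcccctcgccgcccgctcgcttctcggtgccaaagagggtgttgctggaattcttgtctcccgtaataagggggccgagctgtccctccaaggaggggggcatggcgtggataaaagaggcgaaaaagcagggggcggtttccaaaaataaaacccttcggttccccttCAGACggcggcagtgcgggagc
Tgfb1: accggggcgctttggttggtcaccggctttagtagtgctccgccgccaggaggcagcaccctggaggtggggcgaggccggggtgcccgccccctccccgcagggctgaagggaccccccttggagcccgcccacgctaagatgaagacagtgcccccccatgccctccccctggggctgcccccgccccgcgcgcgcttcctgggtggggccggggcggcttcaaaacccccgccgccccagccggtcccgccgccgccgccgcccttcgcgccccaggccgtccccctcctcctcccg
Tgfb2: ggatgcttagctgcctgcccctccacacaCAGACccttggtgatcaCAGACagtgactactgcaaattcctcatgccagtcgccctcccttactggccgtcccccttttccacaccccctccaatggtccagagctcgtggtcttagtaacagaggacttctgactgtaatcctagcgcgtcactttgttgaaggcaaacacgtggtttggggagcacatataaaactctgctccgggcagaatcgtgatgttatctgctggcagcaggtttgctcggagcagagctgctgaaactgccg
The Ltbp2 window held 3 matches, the Tgfb2 window 2 and the Tgfb1 window 0. Of 32544 distinct promoter windows in the table, 49.5% held at least 1, so a match is common. The palindromic form GTCTAGAC, in 0.215% of all windows, the AP-1 letters TGACTCA (5.19%), the TEAD letters CATTCC (14.6%) and the CArG box (1.64%), each searched on both strands, had no match in any of the windows of the 6 matched genes. The letters TATAAA, in 13.6% of all windows, occurred in that of Tgfb2 alone among the 7 windows of those genes, beginning at position -31 from the start. These matches describe the letters and do not show binding.

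Of the ligands, Tgfb3 differed most. Tgfb3, a ligand often found in connective tissue, lies on chromosome 12 from 86102756 to 86126301 on the minus strand and has 7 exons. It had 987 normalized counts at 0.2 kPa, 1132 at 8 kPa and 1584 at 64 kPa. The stiff library was 60.5% above the soft one and stood apart from both others. Its log2 ratio for 64 against 0.2 kPa came to 0.68 (0.57 to 0.80), made of 0.20 in the first and 0.48 in the second step, and it was 0.62 after subtraction of the length and GC trend. Ttll5, a tubulin-modifying enzyme gene that overlaps Tgfb3 on the opposite strand, stayed between 292 and 297 normalized counts in the 3 libraries.

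Tgfb2, on chromosome 1 from 186354985 to 186438294 on the minus strand, encodes the ligand that depends most on the co-receptor Tgfbr3 for binding. It had 471 normalized counts at 0.2 kPa, 473 at 8 kPa and 592 at 64 kPa. Soft and intermediate did not differ beyond counting error (log2 ratio 0.0082, from -0.18 to 0.19, and -0.04 with the trend subtracted), and the stiff library was higher, with a log2 ratio to soft of 0.33 (0.15 to 0.51).

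Tgfb1, on chromosome 7 from 25386390 to 25404506 on the plus strand, encodes the ligand most widely tied to fibrosis, and macrophages and platelets are known sources of it. It had 5979.9 normalized counts at 0.2 kPa, 7227 at 8 kPa and 6097 at 64 kPa. The intermediate library was the highest, 20.9% above the soft one, a log2 ratio of 0.27 (0.22 to 0.32). The stiff and soft libraries did not differ beyond counting error, with a log2 ratio of 0.03 (-0.02 to 0.08) that was -0.05 with the trend subtracted. The median log2 ratio of the 13 macrophage markers was 1.25 for 64 against 0.2 kPa, 0.44 for 8 against 0.2 kPa and 0.78 for 64 against 8 kPa. Of 5 platelet genes, Pf4 went from 4794 at 0.2 kPa to 7553 at 64 kPa and Ppbp from 1233 to 1838, log2 ratios of 0.66 and 0.57, and Itga2b had 80.0 and 64.6, a log2 ratio of -0.30 that was -0.57 with the trend subtracted. The platelet receptor gene Gp9 was at 0 in all 3 libraries and Gp1bb had 1 read in the soft library and 0 in the others. The part of macrophages, and of any platelets, in the Tgfb1 level was not tested.

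Per kilobase, Tgfb1 made up 89.2% of the 3 ligands' summed level at 0.2 kPa, 90.0% at 8 kPa and 84.8% at 64 kPa. Tgfb3 made up 7.85%, 7.52% and 11.8%, and Tgfb2 2.97%, 2.50% and 3.49%. These shares rest on 1 annotated length per gene. Tgfb1 was the main ligand in all 3 libraries, and the share of Tgfb3 was largest in the stiff one.

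The receptors differed less than Ltbp2 and Tgfb3. Tgfbr2, the type II receptor that binds ligand first, lies on chromosome 9 from 115913361 to 116004800 on the minus strand. It had 2846 normalized counts at 0.2 kPa, 3036 at 8 kPa and 3231 at 64 kPa. The stiff to soft log2 ratio was 0.18 (0.11 to 0.26) as deposited and -0.19 after subtraction of the length and GC trend, so its direction depended on that step. At 8484 nt its transcript is longer than 94.7% of the genes with a length.

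Tgfbr1, the type I receptor kinase that phosphorylates Smad2 and Smad3, lies on chromosome 4 from 47353134 to 47414931 on the plus strand. It had 3273 normalized counts at 0.2 kPa, 3111 at 8 kPa and 3052 at 64 kPa. Of the 10 genes only Tgfbr1 was lower at each higher stiffness, with a stiff to soft log2 ratio of -0.10 (-0.17 to -0.03) that was 0.0034 with the trend subtracted, and the intermediate and stiff libraries did not differ beyond counting error.

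Tgfbr3, or betaglycan, is a membrane proteoglycan that presents ligand to the other receptors and, when shed, can hold ligand away from them. The gene lies on chromosome 5 from 107249402 to 107437623 on the minus strand. It had 3123 normalized counts at 0.2 kPa, 3519 at 8 kPa and 3882 at 64 kPa, in order of stiffness with each step beyond counting error. The stiff to soft log2 ratio was 0.31 (0.24 to 0.38), and 0.19 with the trend subtracted. Per kilobase, the ratio of Tgfbr3 to Tgfbr1 was 0.916 at 0.2 kPa, 1.09 at 8 kPa and 1.22 at 64 kPa as deposited. That of Tgfbr2 to Tgfbr1 was 0.599, 0.672 and 0.729. With the trend subtracted, stiff to soft log2 ratios were 0.19 for Tgfbr3, -0.19 for Tgfbr2 and 0.0034 for Tgfbr1. The first ratio would then rise less and the second would fall.

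**Figure D3:**
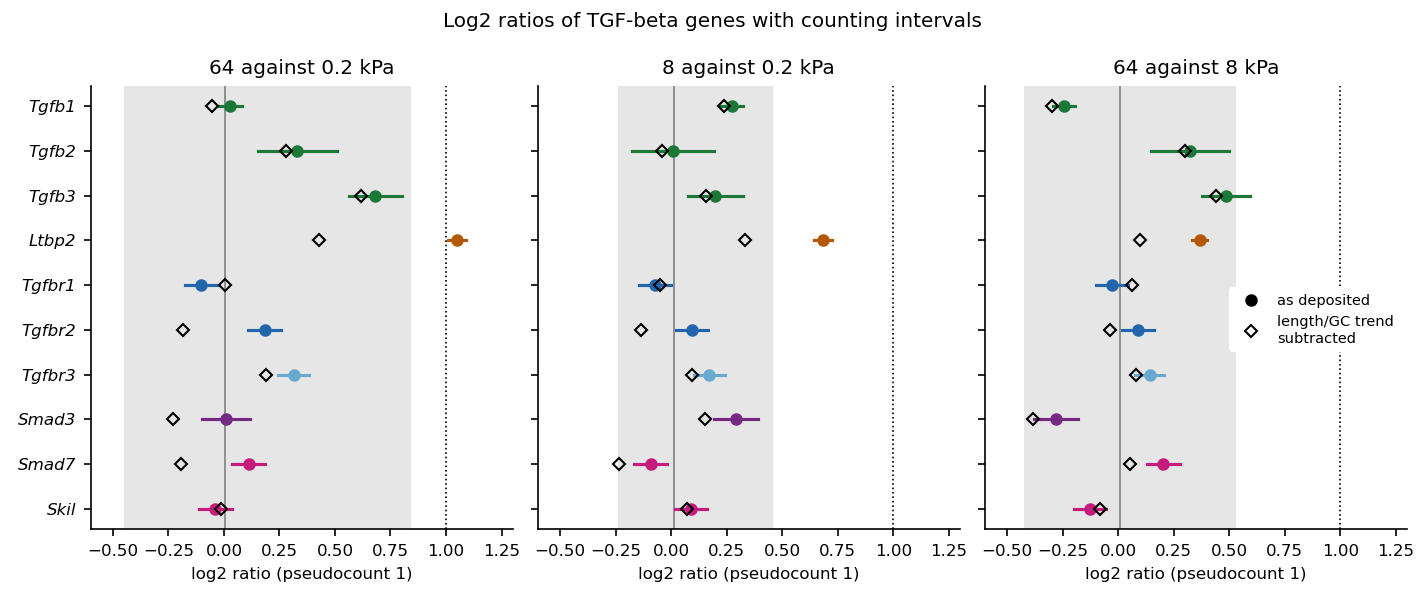
Filled points give each gene's log2 ratio in 3 comparisons, coloured lines its 95% counting interval, and open diamonds the ratio after subtraction of the length and GC trend. A grey band runs from the 5th to the 95th percentile of all 11873 genes and a dotted line marks a log2 ratio of 1. In the left and middle panels Ltbp2 lies to the right of the band, and its diamonds lie inside it.

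Smad3, which carries the signal into the nucleus and binds DNA, lies on chromosome 9 from 63554049 to 63665476 on the minus strand. It had 1476 normalized counts at 0.2 kPa, 1806 at 8 kPa and 1486 at 64 kPa. Like Tgfb1 it was highest at 8 kPa, with a log2 ratio of 0.29 (0.19 to 0.39) between intermediate and soft and of -0.28 (-0.38 to -0.18) between stiff and intermediate. These were 0.15 and -0.39 with the trend subtracted. Soft and stiff did not differ beyond counting error, with a log2 ratio of 0.0094 that was -0.23 with the trend subtracted. Both steps share the intermediate library, so a property of that 1 library moves both.

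The inhibitors Smad7 and Skil are induced by TGF-beta in many cells, Smad7 blocking and degrading the type I receptor and Skil (SnoN) repressing SMAD-driven transcription. Smad7, on chromosome 18 from 75500374 to 75529006 on the plus strand, had 2941 normalized counts at 0.2 kPa, 2760.2 at 8 kPa and 3176 at 64 kPa. It was lowest at 8 kPa. Its stiff to soft log2 ratio was 0.11 (0.04 to 0.18) as deposited and -0.19 with the trend subtracted, so no direction held between those libraries. Skil, on chromosome 3 from 31148816 to 31176740 on the plus strand, had 3054 normalized counts at 0.2 kPa, 3251 at 8 kPa and 2974 at 64 kPa. Soft and stiff did not differ beyond counting error in Skil, with a log2 ratio of -0.04 (-0.11 to 0.04) that was -0.01 with the trend subtracted.

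Set side by side as deposited, Tgfb2, Tgfb3, Ltbp2, Tgfbr2 and Tgfbr3 were highest in the stiff and lowest in the soft library, and Tgfb1, Smad3 and Skil were highest in the intermediate library. The order of the 3 libraries held under every pseudocount, scaling and trend setting for Tgfb3, Ltbp2, Tgfbr3 and Skil. It changed in at least 1 of those settings for the other 6 genes. Even so, Tgfb1 and Smad3, like Skil, were highest at 8 kPa in all of them, and Smad7 was lowest there in all. Counting intervals leave out all variation between cultures, which 1 library per level cannot show.

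**Figure D4:**
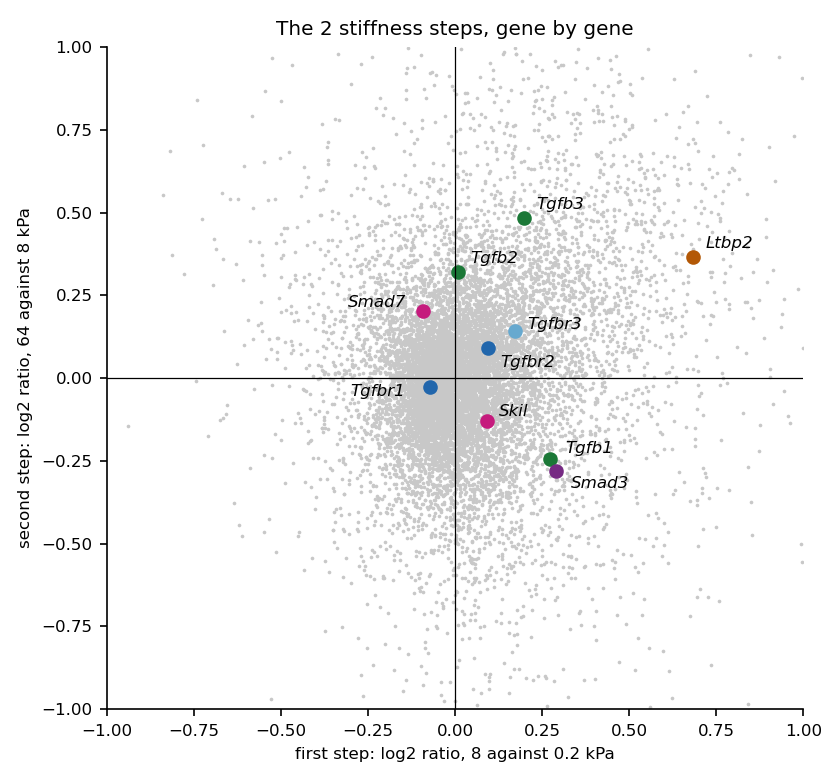
Each grey dot is 1 of 11873 genes, placed by its log2 ratio from 0.2 to 8 kPa (horizontal) and from 8 to 64 kPa (vertical). The 165 genes beyond 1 on either axis are not drawn. Ltbp2 stands furthest to the right of the 10 genes, Tgfb3 is the highest of them, and Tgfb1 and Smad3 lie side by side at the lower right. The steps share the 8 kPa library.

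Distances in the plane of the 2 steps over 3 libraries were taken from the ratios as deposited. Subtraction of the trend, which takes the steps of Ltbp2 to 0.33 and 0.10, was not applied to them. The genes with the pattern most like that of Ltbp2 were Zfp609, Prune2 and Nckap1l, at distances of 0.0020, 0.023 and 0.031. Of 10622 named genes with a mean of at least 100, 18 lay within 0.1 of Ltbp2. Nearest to Tgfbr1, the member with the lowest stiff to soft ratio, were Arpc1a, Tmed2 and Smad6, but 1993 genes lay within 0.1 of it, so that pattern is common.

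Other genes of the pathway were counted by list, with no test between lists. Of 16 latency and activation genes 14 had a mean of at least 50. Where 51.1% of all genes were higher in the stiff than in the soft library, 12 of these were higher and 2 lower. Their median log2 ratio was 0.39, against 0.0049 over all genes, and 0.09 with the trend subtracted, when 8 were higher and 6 lower. Nrros, which tethers latent TGF-beta on macrophages and microglia, rose most in that list, from 435 through 604 to 998 normalized counts, a log2 ratio of 1.20 (1.03 to 1.37), beside the macrophage markers given above. Ltbp4, a latent TGF-beta binding protein of elastic tissue, stood at 322, 443 and 660.4, a log2 ratio of 1.03 that was 0.51 with the trend subtracted and below 1 under the scalings by library total and upper quartile. Itgb3, a chain of the vitronectin-binding integrin that can pull on latent TGF-beta, was the lowest, with 4192 at 0.2 kPa, 4484 at 8 kPa and 2377 at 64 kPa and a stiff to soft log2 ratio of -0.82. With the trend subtracted it was -1.01, past 1 in size.

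The latent TGF-beta binding protein family can be set beside Ltbp2, with Ltbp1 and Ltbp3 named after their values had been seen. The stiff to soft log2 ratio was 0.35 for Ltbp1, 0.74 for Ltbp3 and 1.03 for Ltbp4, against 1.05 for Ltbp2. With the trend subtracted they were 0.25, 0.10 and 0.51, against 0.43 for Ltbp2. All 4 were higher in the stiff than in the soft library before and after that step.

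Among 10 co-receptors and ligand-binding modulators, 5 were higher and 5 lower in the stiff library, none past a log2 ratio of 1, with a median of 0.10. Of all genes 51.1% were higher and 3.6% passed 1 in size. Endoglin (Eng), a co-receptor known from endothelium and activated fibroblasts, was the highest at 1691, 1976 and 3062 normalized counts in order of stiffness, a log2 ratio of 0.86. Decorin (Dcn), a proteoglycan that binds TGF-beta, was the lowest at 5107, 4176 and 3765, a log2 ratio of -0.44 that was -0.26 with the trend subtracted. The 8 signal transducers kept within a narrow range, from -0.15 for the kinase Map3k7 to 0.19 for the deubiquitinase Usp15. Their median was 0.07, and -0.02 with the trend subtracted.

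Of 12 further negative regulators, 8 were higher and 4 lower in the stiff library as deposited, and 4 higher and 8 lower with the trend subtracted. None passed a log2 ratio of 1 in size. As deposited 3.6% of all genes did, and 51.1% of all genes were higher. Smurf2, a ubiquitin ligase that acts with Smad7 on the receptor, was the highest at 8156, 7834 and 10549 normalized counts (log2 ratio 0.37), and the repressor gene Tgif2 the lowest at 221, 236 and 189 (log2 ratio -0.23, from -0.52 to 0.06, and -0.35 with the trend subtracted).

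Genes known to respond to TGF-beta did not move as 1 group. Where 51.1% of all genes were higher in the stiff library, 20 of 29 such genes were higher and 9 lower. Their median log2 ratio was 0.26, or 0.13 with the trend subtracted. A log2 ratio of 1 was reached by 4 of them, which is 13.8% of the list against 3.6% of all genes, and all 4 were higher: Acta2 (2.24), Tagln (2.04), Ccn2 (1.21) and Fn1 (1.08). Acta2 and Tagln are contractile genes, Ccn2 is a matricellular gene and Fn1 encodes fibronectin, and each is also known to respond to actin-linked factors. Fn1 had a ratio of 0.44 with the trend subtracted, when 3 of the 29 passed 1, against 2.51% of all genes with an annotated length. The list was written with earlier results of these data known. At the other end Cthrc1, a secreted protein of activated fibroblasts, had 5561 normalized counts at 0.2 kPa, 5293 at 8 kPa and 3513 at 64 kPa, a log2 ratio of -0.66. For 8 against 0.2 kPa, no gene of the 6 pathway lists with a mean of at least 50 reached a log2 ratio of 1, as 0.168% of all genes did. For 64 against 8 kPa, 3 of the 29 target genes did, Acta2 at 1.87, Tagln at 1.62 and Ccn2 at 1.27, and none of the other 5 lists, against 1.25% of all genes. Itgb3, of the latency list, had -0.92 in that comparison and -1.01 with the trend subtracted.

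**Figure D5:**
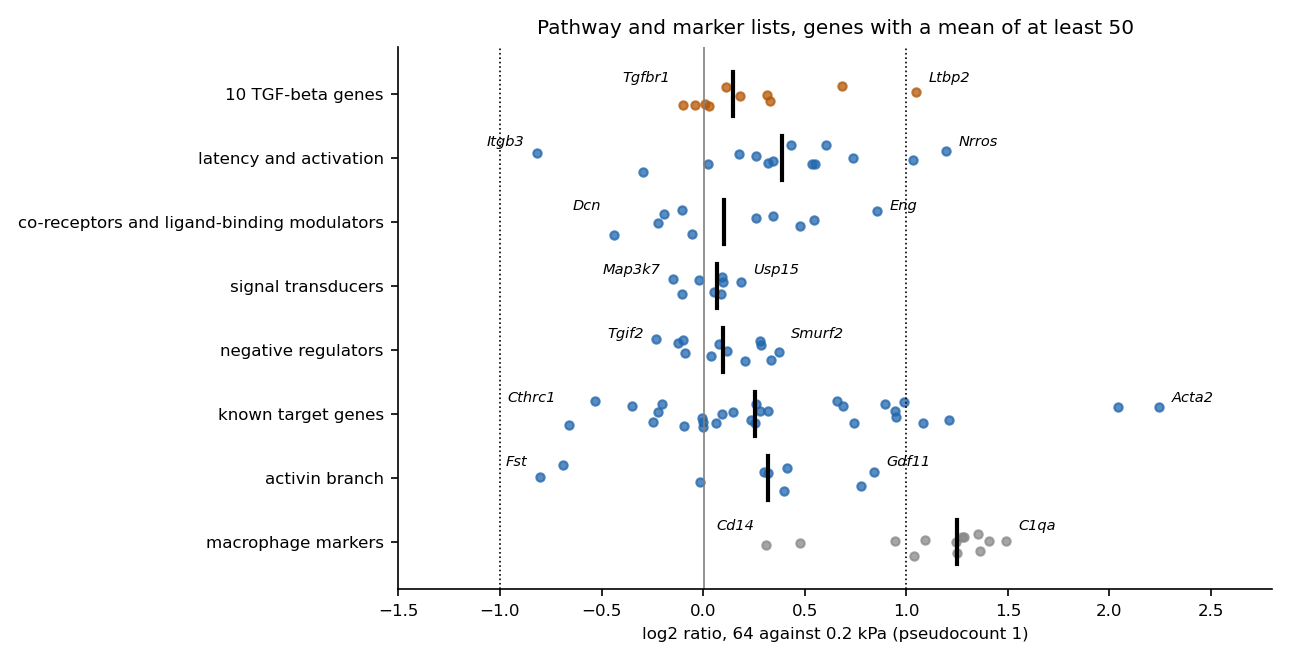
Each dot is a gene with a mean of at least 50, placed by its log2 ratio between the libraries at 64 and 0.2 kPa, with 1 row per list and a black bar at each list's median. The grey line is the median of all genes and dotted lines mark log2 ratios of 1 and -1; the median of the macrophage markers (1.25) lies furthest to the right, and the target genes spread from Cthrc1 at -0.66 to Acta2 at 2.24.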

How the data were processed

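RNA was sequenced from 3 libraries, 1 per stiffness level, made with a stranded poly(A) kit per the labels' protocols. The submitters' processing notes name STAR 2.7.9a, featureCounts of Subread 2.0.1, DESeq2 1.34.0 and GRCm39; the annotation and strand setting are not given in the sources used here. The 3 deposited files hold the same table of signal values, gene counts that the authors divided by a size factor per library, per the file names. All values (100.0% in each column, within 0.01) were whole multiples of the smallest, so reads were recovered, 25487064 (soft), 28081600 (intermediate) and 26474862 (stiff).

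Log2 ratios used a pseudocount of 1, which understates low genes, and calls a minimum mean of 50. Exact 95% Clopper-Pearson intervals of the reads of 2 libraries cover counting error alone, because reads copied by PCR do not count separate molecules. With 1 library per level no model across samples was fitted; edgeR 4.0.16 served for TMM and upper quartile scaling. Positions, lengths and GC contents come from GENCODE vM39, matched by symbol. The length and GC trend was fitted locally by robust linear regression on each gene's 300 neighbours. The fit was run on a planted trend, and the calls on simulated counts with planted changes and counting error only. Neither simulation holds variation between cultures, so they check the code and not the calls made here.

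The members, lists and alternatives were chosen with earlier results of these data known. Named genes were the 10 members, the highest and lowest gene of each of 6 pathway lists in the stiff to soft ratio, list genes past a log2 ratio of 1 with a mean of at least 50, and the 3 genes nearest to the highest and lowest member. Of the 5 skeletal muscle markers, Acta1 had 164, 315 and 607 reads in order of stiffness, Mylpf 45, 58 and 52, Myh1 0, 1 and 3, Ckm 1, 0 and 0, and Myh4 none.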

Additional observations from a re-analysis of the deposited data

How the results depend on the processing

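With 1 library per level no replicate could be left out, so that alternative was not run. No paired analysis was possible because each level has a single library. The count of members past a log2 ratio of 1 between stiff and soft was 1 with both other pseudocounts, with no minimum mean, with minimum means of 10 and 200 and with TMM scaling. It was 0 with scaling by the library total and 0 with upper quartile scaling, where Ltbp2 had 0.99, and 0 with the length and GC trend subtracted, where Ltbp2 had 0.43; these shifts follow from the alternatives' construction. At thresholds of 0.5 and 2 it was 2 and 0, and between intermediate and soft the count was 1 at 0.5. Of 30 log2 ratios of members, 21 kept their sign under every pseudocount, scaling and trend setting and 9 did not. The medians of the pathway lists were recomputed as well, a choice made after seeing the data, and 6 of 108 moved by 0.1 or more, all with the trend subtracted. Scaling moved the median of all genes by at most 0.058 on the log2 scale in size. Depth limits Tgfb2 most, at 459 to 577 reads.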

Other observations

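Ltbp2 and Tgfb3, the members with the largest stiff to soft ratios, lie on the same strand of chromosome 12 with 1179 kb between them. Between the outer ends of this pair lie 15 other genes whose mean reached 50, and of these 8 were higher in the stiff library, as were 51.1% of all genes, and the median log2 ratio was 0.0024. One of the 15 passed a log2 ratio of 1, as 3.6% of all genes did: Ylpm1, named after its value had been seen, at 356, 518 and 798 normalized counts in order of stiffness. D030025P21Rik, which overlaps Ltbp2 on the opposite strand, stood at 345, 401 and 321.

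The activin branch, whose ligands also act through Smad2 and Smad3, had 9 of 13 genes above the minimum mean of 50. Of these 6 were higher and 3 lower in the stiff than in the soft library, with a median log2 ratio of 0.32. None passed 1 as deposited. Of all genes 51.1% were higher and 3.6% passed 1 in size. Gdf11, an activin-like ligand, was the highest at 304.5, 379 and 545.6 normalized counts in order of stiffness, a log2 ratio of 0.84. Fst encodes follistatin, which binds and blocks activins. It was the lowest, at 6496, 6946 and 3716, a log2 ratio of -0.81. The activin subunit genes, named after their values had been seen, differed from each other: Inhba had a stiff to soft log2 ratio of 0.41 and Inhbb one of -0.69, and Inhbb was at -1.14 with the length and GC trend subtracted. Myostatin (Mstn), also named after its value had been seen and below the minimum mean, had 39 reads at 0.2 kPa, 19 at 8 kPa and 4 at 64 kPa, a log2 ratio of -3.01 with a counting interval from -5.23 to -1.81. Nodal had no read in any library.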
